A study of Mus musculus with 30 samples.

Results

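The 10 cathepsin genes Ctsa, Ctsb, Ctsc, Ctsd, Ctse, Ctsh, Ctsk, Ctsl, Ctss and Ctsz were followed across 5 sorted cell populations of the mouse spleen. They were taken as a named gene family, matched by Ensembl identifier to their symbols, and make up 10 of the 37991 gene identifiers in the count table, of which 20439 held any count. The libraries fell into 5 groups of 6: TLR7.1 iHPC, TLR7.1 RPM, WT RPM, TLR7.1 Mono and WT Mono. TLR7.1 mice carry extra copies of Tlr7, which encodes an endosomal receptor for single-stranded RNA, and the WT mice were B6. iHPC are the hemophagocytes of TLR7.1 spleens, sorted as Ly6C-negative cells high for CD31, low for VCAM and F4/80 and positive for CD11b. RPM, the red pulp macrophages, were Ly6C-negative, low for CD31, high for VCAM, positive for F4/80 and negative or intermediate for CD11b. Mono, the Ly6C-high monocytes, were positive for Ly6C, Ccr2 and CD11b. All gates also asked for live CD45.2-positive cells without SiglecF or Ly6G. The 12 mice, 6 of each genotype, were females of 9.4 to 15.7 weeks, and every TLR7.1 mouse gave an iHPC, an RPM and a Mono library, every WT mouse an RPM and a Mono library. Each library was made from 500 cells, so that fewer cells of a type and less RNA per cell cannot be told apart in these sums.

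Cathepsins are the proteases of the lysosome and late endosome. They are made as inactive proenzymes, carried to the lysosome largely by mannose 6-phosphate receptors, and activated there at low pH. Phagocytes use them to digest what they take up, among it whole red cells in the spleen. Endosomal proteolysis is also needed by nucleic-acid-sensing Toll-like receptors, whose ectodomains are cleaved by cathepsins and asparagine endopeptidase before they signal. By chemistry the 10 genes fall into aspartic endopeptidases (Ctsd, Ctse), cysteine endopeptidases of the papain family (Ctsb, Ctsk, Ctsl, Ctss), cysteine exopeptidases (Ctsc, Ctsh, Ctsz) and a serine carboxypeptidase (Ctsa).

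In the deposited counts, library totals ran from 95002 to 1932427, with medians of 1112665 in TLR7.1 iHPC, 820242 in TLR7.1 RPM, 544757 in WT RPM, 1656511.5 in TLR7.1 Mono and 1584430 in WT Mono. RPM libraries were therefore mostly shallower than Mono libraries. Of 8 RPM marker genes 8 were lower in iHPC than in TLR7.1 RPM, with Timd4 and Siglec1 at 0 in all 6 iHPC libraries, and 8 were higher in RPM than in Mono of each genotype. Of 6 Ly6C-high monocyte genes 6 were lower in iHPC than in TLR7.1 Mono, and 6 lower in RPM than in Mono of each genotype. Both lists hold genes of the sort gates. Tlr7 averaged 1116 ± 133 CPM in iHPC, 1029 ± 340 CPM in RPM and 995 ± 181 CPM in Mono of TLR7.1 mice, against 222 ± 108 CPM in WT RPM and 307 ± 52.8 CPM in WT Mono (SD, n = 6 each). Levels are given as CPM, the authors' counts on a common library size after scaling of the totals with the trimmed mean of M values (TMM). A gene was called when its adjusted p, from edgeR's quasi-likelihood test with Benjamini-Hochberg adjustment over the 11030 genes tested, was under 0.05. Of the 10 cathepsins 9 passed the filter on low counts, and Ctsk did not.

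Together the 10 genes took 0.606 to 1.34% of a library's counts. Their summed level averaged 6746 ± 697 CPM in TLR7.1 iHPC, 10670 ± 2350 CPM in TLR7.1 RPM, 10776 ± 1845 CPM in WT RPM, 7719 ± 532 CPM in TLR7.1 Mono and 7312 ± 807 CPM in WT Mono (SD, n = 6 each). The sum was thus lowest on average in iHPC and highest in RPM of both genotypes, but per kb of exon it averaged 2604 CPM per kb in TLR7.1 iHPC and 2546 CPM per kb in WT Mono, so that on this scale WT Mono was the lowest. Read density levelled off in deep libraries: the densest gene of the table held 0.562 reads per exonic base in the library of 95002 counts and 1.48 to 1.59 in libraries of 1069251 counts or more, and so did not grow in proportion to depth. Ctss reached 1.46 reads per exonic base in WT Mono, and Ctsc reached 1.47 reads per base of its principal transcript in TLR7.1 Mono. The part of this levelling as such in their CPM values, shares and fold changes was not tested. Fold changes refitted with the library total as a term, or in a range of totals, are given below. Divided by exon length, so that genes can be set against each other, Ctss was the largest share of the summed cathepsin level in each of the 5 groups. That share was 43.3 ± 6.44% in TLR7.1 iHPC, 33.9 ± 2.0% in TLR7.1 RPM, 41.3 ± 5.84% in WT RPM, 34.4 ± 1.25% in TLR7.1 Mono and 36.4 ± 0.80% in WT Mono. Ctsz came second in each group on this scale, at 16.0 to 22.9% of the sum. The aspartic protease Ctsd held 15.6 ± 1.81% in TLR7.1 RPM and 13.0 ± 0.678% in WT RPM, with 6.45 ± 0.652% in TLR7.1 iHPC, 5.65 ± 0.852% in TLR7.1 Mono and 4.65 ± 0.816% in WT Mono. The ranks depended on the length used. Per kb of the principal transcript 32 of the 50 shares differed by more than 1 SD, and while Ctss was still first in each group, Ctsz was second in iHPC alone and Ctsc exceeded it in the other 4 groups, at 21.7% for Ctsc and 16.9% for Ctsz in TLR7.1 Mono. By CPM without length 39 of the 50 differed by more than 1 SD and Ctss was first in no group. Ctsb then led in TLR7.1 iHPC (23.2%), TLR7.1 RPM (28.7%) and WT RPM (29.6%), and Ctsc in TLR7.1 Mono (25.1%) and WT Mono (21.2%).

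**Figure D1:**
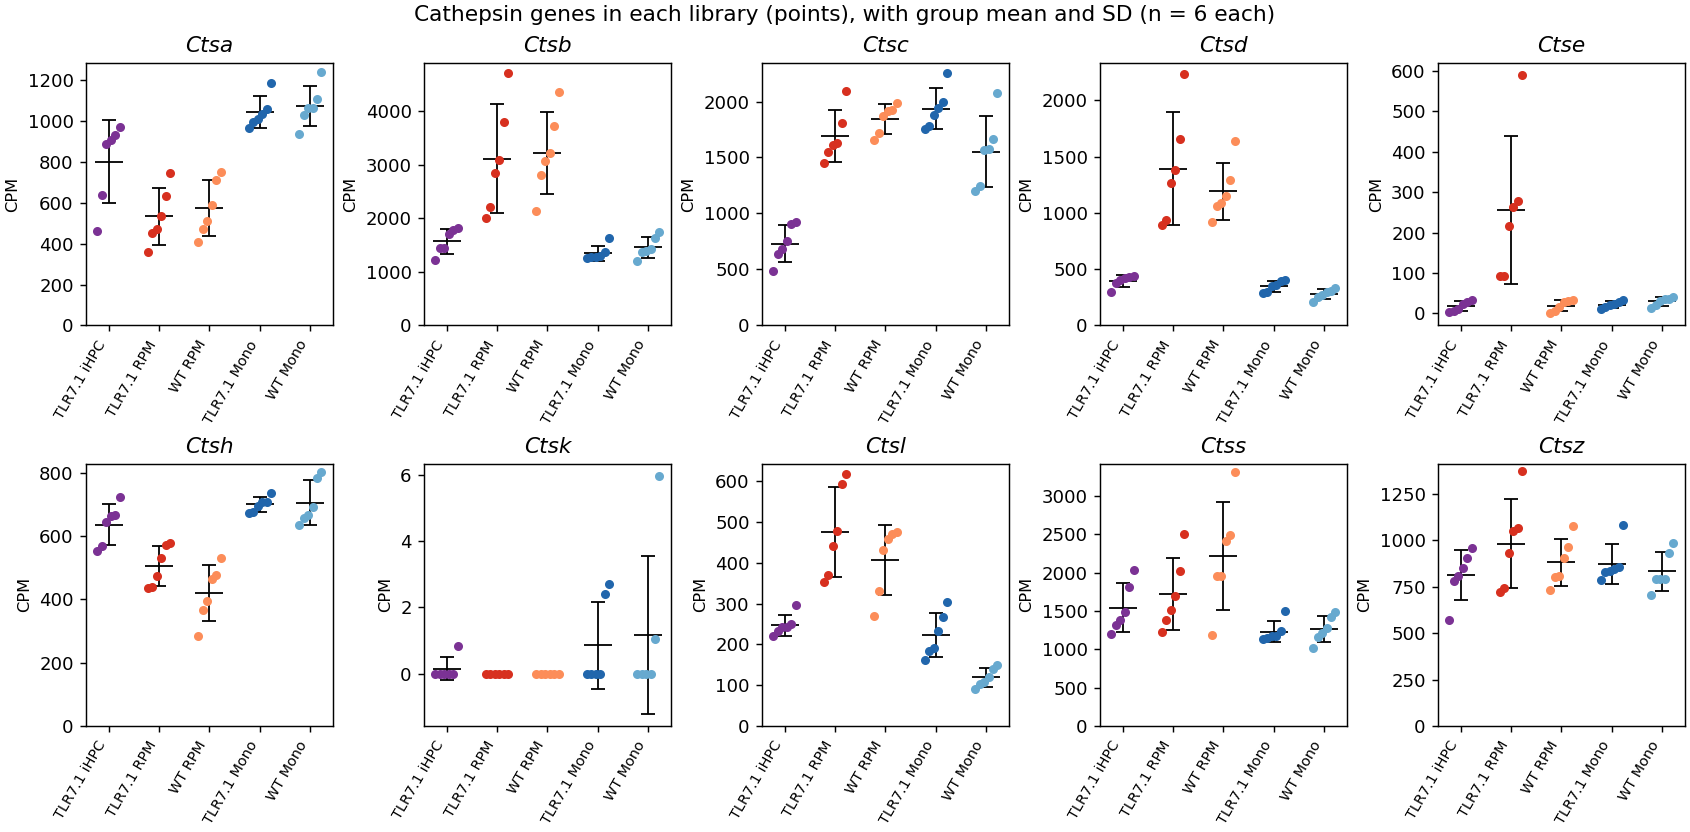
Level of each cathepsin gene in CPM (vertical axis, one panel per gene, each with its own scale) in the 5 groups of 6 libraries. Points are libraries, bars the mean and SD. Ctsc is lowest in TLR7.1 iHPC, Ctsb and Ctsd are highest in RPM of both genotypes, Ctse is high in TLR7.1 RPM, and Ctsk is near 0 in all 5 groups.

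**Figure D2:**
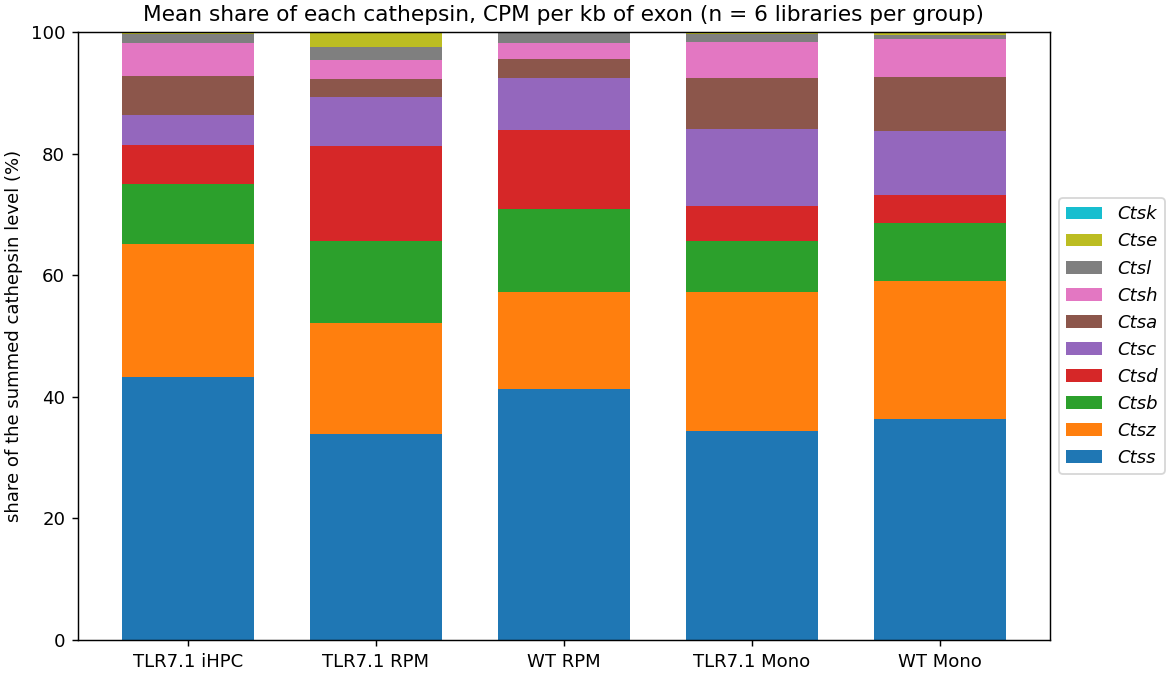
Mean share of each gene in the summed cathepsin level (vertical axis, percent, CPM per kb of exon) for the 5 groups, over 6 libraries each. Ctss and Ctsz form the 2 largest blocks in each column, and the Ctsd block is 15.6% and 13.0% in TLR7.1 and WT RPM.

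The upstream sequence of 4 members is shown because their levels ran in different directions between the same cell types: Ctsa was lower and Ctsd and Ctsl higher in RPM than in Mono, and Ctss had the highest level per length. The windows of 300 bases, 250 before and 50 after the start site, are RefSeq's on GRCm38.p6, and 7 of the 10 members had at least 1 (Ctsa had 2, of which the one with matches is printed). Capitals mark the letters CACGTG, the core that MiT/TFE factors of lysosomal genes bind, or AGGAAGT, a PU.1-type Ets motif, on either strand. The Ctsa window is chr2:164833523-164833822 on the plus strand, the Ctsd window chr7:142387778-142388077 on the minus strand, the Ctsl window chr13:64370471-64370770 on the minus strand and the Ctss window chr3:95526536-95526835 on the plus strand.
Ctsa: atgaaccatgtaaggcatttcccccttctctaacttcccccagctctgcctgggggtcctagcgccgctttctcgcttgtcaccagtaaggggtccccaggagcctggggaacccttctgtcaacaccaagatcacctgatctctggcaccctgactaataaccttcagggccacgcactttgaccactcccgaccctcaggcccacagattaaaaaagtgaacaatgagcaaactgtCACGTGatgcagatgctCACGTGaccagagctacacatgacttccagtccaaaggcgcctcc
Ctsd: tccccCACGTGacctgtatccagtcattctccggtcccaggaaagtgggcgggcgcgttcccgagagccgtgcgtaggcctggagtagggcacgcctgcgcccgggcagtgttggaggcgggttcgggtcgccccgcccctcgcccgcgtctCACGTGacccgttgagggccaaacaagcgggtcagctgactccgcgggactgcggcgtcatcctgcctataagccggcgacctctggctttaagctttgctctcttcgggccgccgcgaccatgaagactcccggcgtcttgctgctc
Ctsl: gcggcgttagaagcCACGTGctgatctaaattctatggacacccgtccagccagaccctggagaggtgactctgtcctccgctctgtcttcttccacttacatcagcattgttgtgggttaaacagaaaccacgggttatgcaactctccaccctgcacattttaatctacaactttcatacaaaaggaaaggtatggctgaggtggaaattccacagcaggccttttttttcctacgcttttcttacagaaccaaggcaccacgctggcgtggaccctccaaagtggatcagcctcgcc
Ctss: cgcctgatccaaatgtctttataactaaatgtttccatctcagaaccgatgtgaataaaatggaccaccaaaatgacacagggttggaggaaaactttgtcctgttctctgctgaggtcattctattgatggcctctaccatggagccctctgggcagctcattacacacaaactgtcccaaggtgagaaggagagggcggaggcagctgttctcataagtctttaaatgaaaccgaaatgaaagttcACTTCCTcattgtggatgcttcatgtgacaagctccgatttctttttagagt
CACGTG stood at -12 and 6 from the start site in Ctsa, at -245 and -98 in Ctsd and at -236 in Ctsl, and in 7.15% of 32851 promoter windows of the genome. The longer TCACGTGA, which contains it, was found in Ctsa at -13 and 5 and in Ctsd at -99, and in 0.974% of all windows. Of the windows of members, AGGAAGT was found in Ctss at -2 and in Ctsc at -151 (9.35% of all windows), and TGANTCA, the AP-1 motif, in 0 (7.81% of all windows). Ctsa and Ctsd, which share the longer match, moved in opposite directions between RPM and Mono. A match is a run of letters and not a binding site, and the part of these matches in the levels was not tested.

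TLR7.1 iHPC had less Ctsd, Ctse, Ctsb, Ctsl and Ctsc than RPM of the same mice, and more of the exopeptidases Ctsa and Ctsh. Of the 9 cathepsins tested, 2 were called higher and 5 lower, where 13.6% of all genes tested were called higher and 13.5% lower (27.1% in either direction). The median log2 fold change was -0.95 over the cathepsins, against -0.00 over all genes tested. The 5 that fell did so in 6 of 6 mice, and for each of them all 6 iHPC libraries lay below all 6 RPM libraries, as they did for 5.09% of all genes tested.

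Ctsd, the main aspartic protease of the lysosome, ranged from 299 over a median of 411 to 441 CPM in TLR7.1 iHPC, against 890, 1323 and 2229 CPM in TLR7.1 RPM. The iHPC libraries lay close together and below the range of RPM. The log2 fold change was -1.81 ± 0.176 (SE; adjusted p = 7.41e-10). Ctse, an aspartic protease of endosomes that in man is also found in the red cell membrane, had 3.52, 17.1 and 32.4 CPM as lowest, median and highest value in iHPC, against 91.7, 239 and 590 CPM in RPM, a log2 fold change of -3.76 ± 0.485 (adjusted p = 2.41e-07). The iHPC values rest on 126 counts over 6 libraries.

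Of the cysteine endopeptidases, Ctsb and Ctsl fell and Ctss was not called. Ctsb, which also cuts as a dipeptidyl carboxypeptidase, had 1216, 1581 and 1820 CPM in TLR7.1 iHPC, against 2007, 2970 and 4724 CPM in TLR7.1 RPM. Its log2 fold change of -0.99 ± 0.163 (adjusted p = 1.73e-05) became -0.58 ± 0.142 (adjusted p = 0.00915) in libraries of 900000 to 1600000 counts alone, of which there were 5 of iHPC and 3 of RPM. Ctsl, which trims the invariant chain in the thymus and cuts widely in lysosomes, had 221, 243 and 296 CPM in iHPC, against 352, 459 and 617 CPM in RPM. That is a log2 fold change of -0.95 ± 0.172 (adjusted p = 6.46e-05). Ctss, the invariant chain protease of antigen-presenting cells, had 1198, 1435 and 2032 CPM in iHPC, against 1220, 1605 and 2508 CPM in RPM, and the groups overlapped over most of their range (log2 fold change -0.16 ± 0.174, adjusted p = 0.545).

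The exopeptidases split. Ctsc, dipeptidyl peptidase I, which activates granule serine proteases, had 482, 718 and 925 CPM in TLR7.1 iHPC, against 1446, 1624 and 2094 CPM in TLR7.1 RPM (log2 fold change -1.21 ± 0.135, adjusted p = 1.67e-08). Ctsa, which also protects the sialidase Neu1 and the galactosidase Glb1 in their complex, had 461, 896 and 971 CPM in iHPC, against 357, 505 and 746 CPM in RPM. It was called higher (0.60 ± 0.165, adjusted p = 0.00605) and was higher in 5 of 6 mice, but the groups overlapped. The exception was mouse 24380, with 461 CPM in iHPC and 746 CPM in RPM. Its libraries, of 292507 and 268275 counts, were the shallowest of both groups. In the libraries of 900000 to 1600000 counts the difference in Ctsa was 0.97 ± 0.154 (adjusted p = 0.000414), while in a fit of these 2 groups alone it was 0.59 ± 0.206 (adjusted p = 0.0529). Ctsh, an aminopeptidase, had 553, 653 and 722 CPM in iHPC, against 436, 502 and 578 CPM in RPM. This call (0.34 ± 0.121, adjusted p = 0.0365) was the least firm of the 7, since it was lost in 7 of 12 fits that left out a library. Ctsz, a carboxypeptidase, had 571, 828 and 956 CPM in iHPC, against 721, 991 and 1371 CPM in RPM, and was not called (-0.26 ± 0.140, adjusted p = 0.170).

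Because depth differed between libraries, the pair of like depth from mouse 24380 was also read directly, as 1 pair without replicates. In it Ctsb stood at 1775 CPM in iHPC and 4724 CPM in RPM, and Ctsd at 401 CPM in iHPC and 2229 CPM in RPM. Ctsc stood at 482 CPM in its iHPC and 1615 CPM in its RPM library. Ctsl and Ctse were also lower in its iHPC library, but of the 2 genes called higher in iHPC, Ctsa went the other way and Ctsh had 553 CPM in iHPC and 578 CPM in RPM. Ctsz, which was not called over all mice, had 571 CPM in iHPC and 1371 CPM in RPM. For Ctsb, Ctsc and Ctsd the fall was larger in this pair than in any other mouse. Mouse 24107 was the one whose RPM library was the deeper, at 1257240 counts against 908264 in iHPC. There Ctsb had 1716 CPM in iHPC and 2007 CPM in RPM, Ctsc 925 and 1446 CPM, and Ctsd 426 and 890 CPM. Ctsl and Ctse were lower in that iHPC library as well, while Ctss had 1818 CPM in iHPC and 1220 CPM in RPM.

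Against Mono of the same mice, 1 cathepsin of TLR7.1 iHPC was called. Of the 9 tested, edgeR called 0 higher and 1 lower, where 38.7% of all genes tested were called in either direction (19.3% higher, 19.4% lower). At an unadjusted p under 0.05, 0 were higher and 2 lower, where 23.7% of all genes were higher and 23.3% lower, and DESeq2 also called 0 higher and 2 lower, where it called 42.2% of all genes. Ctsc fell: its lowest, median and highest values of 482, 718 and 925 CPM in iHPC stood against 1756, 1911 and 2255 CPM in Mono. The log2 fold change was -1.40 ± 0.136 (adjusted p = 3.42e-10, lower in 6 of 6 mice; 17.8% of all genes had all iHPC libraries below all Mono libraries). Per base of the principal transcript, Ctsc held 0.055 to 0.541 reads in iHPC and 0.889 to 1.47 in Mono, and in libraries of 900000 to 1600000 counts its log2 fold change was -1.29 ± 0.147 (adjusted p = 2.03e-05). In the remaining groups Ctsc averaged 1691 ± 231 CPM in TLR7.1 RPM, 1845 ± 132 CPM in WT RPM and 1553 ± 318 CPM in WT Mono. In iHPC Ctsc was 4.85 ± 1.12% of the summed cathepsin level per length, against 8.07 ± 1.51% in TLR7.1 RPM, beside 12.7 ± 1.22% in TLR7.1 Mono.

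The other cathepsins of iHPC were not called against Mono. Ctsd averaged 395 ± 51.4 CPM in TLR7.1 iHPC and 348 ± 49.3 CPM in TLR7.1 Mono (log2 fold change 0.18 ± 0.171, adjusted p = 0.430). Ctsb averaged 1570 ± 237 CPM in iHPC and 1348 ± 140 CPM in Mono (0.22 ± 0.162, adjusted p = 0.299), and Ctsl 247 ± 25.8 CPM in iHPC and 223 ± 54.4 CPM in Mono (0.14 ± 0.170, adjusted p = 0.541). On the axis from Mono to RPM, these 3 genes of iHPC thus lay near Mono. Ctsa averaged 799.5 ± 202.8 CPM in iHPC and 1041 ± 78.3 CPM in Mono (-0.38 ± 0.163, adjusted p = 0.0660), and both edgeR with DESeq2's size factors (adjusted p = 0.0471) and DESeq2 (adjusted p = 0.0426) called it lower. Ctss (0.32 ± 0.174, adjusted p = 0.144) and Ctsb were called higher when only these 2 groups were fitted, at 0.38 and 0.28. By mouse, Ctsa was lower in iHPC in 6 of 6, and Ctsd and Ctss were higher in 6 of 6. Ctsb was higher in 5 of 6 mice, Ctsl in 4 of 6, Ctse and Ctsz in 3 of 6 and Ctsh in 1 of 6.

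Markers of other cells moved with the iHPC libraries. The summed level of 7 basophil and mast cell genes ran from 2.78 to 3074 CPM in TLR7.1 iHPC, against 0 to 5.21 CPM in TLR7.1 RPM and 1.21 to 10.5 CPM in TLR7.1 Mono. The library with 2.78 CPM of these genes, from mouse 24261, held 753 CPM of Ctsc. Of 10 neutrophil and granulocyte progenitor genes the sum was 150 to 1507 CPM in iHPC, against 8.67 to 426 CPM in TLR7.1 RPM and 199 to 1761 CPM in TLR7.1 Mono. Against TLR7.1 RPM, 5 of 7 B cell genes and 5 of 11 erythroid genes were lower in iHPC. Against TLR7.1 Mono, 9 of 11 erythroid genes and 5 of 5 megakaryocyte and platelet genes were higher in iHPC. The part of these cells in the differences of iHPC, that in Ctsc among them, was not tested.

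**Figure D3:**
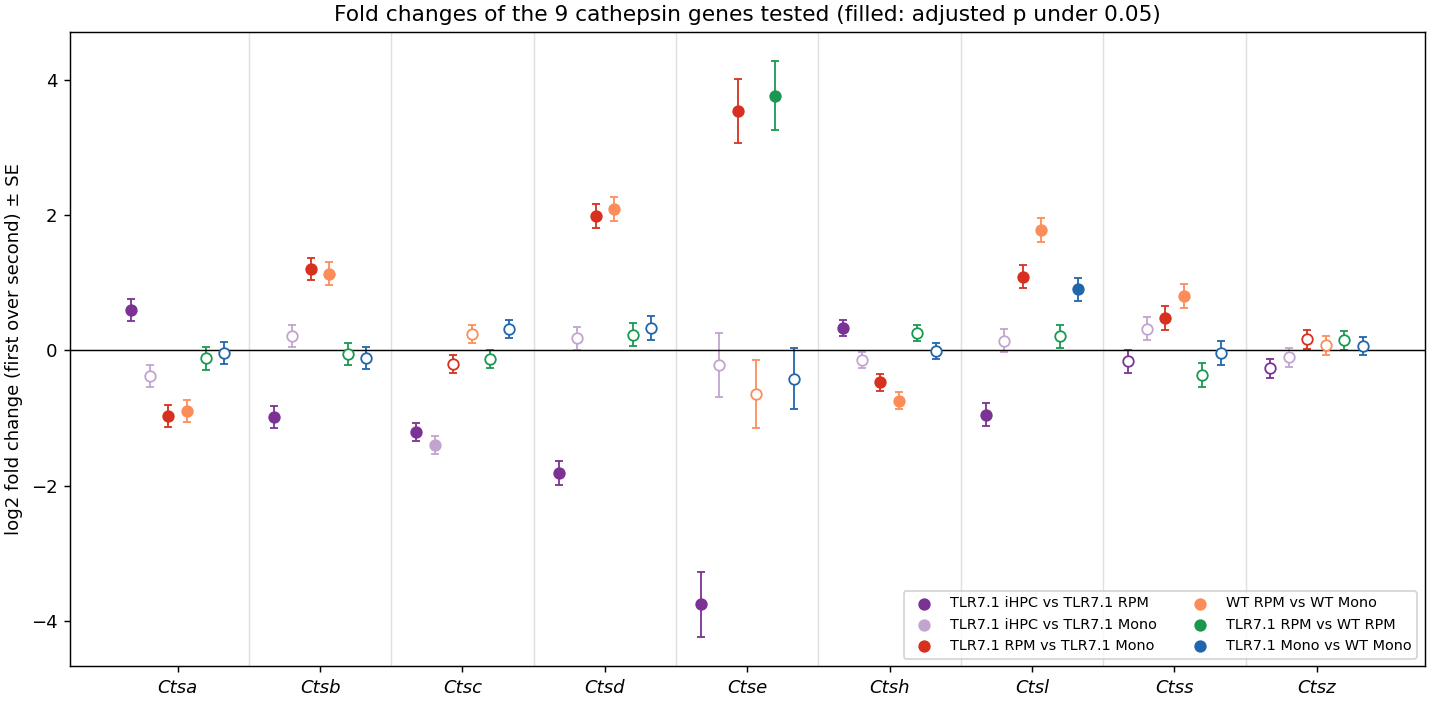
Log2 fold change (vertical axis, first group over second, ± SE) of the 9 cathepsins tested in 6 comparisons, from the fit to all 30 libraries. Filled points passed an adjusted p of 0.05. Ctsc is the single filled point of TLR7.1 iHPC vs TLR7.1 Mono, and the points of TLR7.1 RPM vs TLR7.1 Mono and of WT RPM vs WT Mono lie on the same side of 0 for Ctsa, Ctsb, Ctsd, Ctsh, Ctsl, Ctss and Ctsz.

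RPM had more Ctsd, Ctsb and Ctsl than Mono in both genotypes, and less Ctsa and Ctsh. In TLR7.1 mice 5 cathepsins were called higher in RPM and 2 lower, where 46.6% of all genes tested were called (23.9% higher, 22.6% lower). In WT mice 4 were called higher and 2 lower, where 46.2% were called (23.7% higher, 22.5% lower). The median log2 fold change over the cathepsins was 0.48 in TLR7.1 mice and 0.25 in WT mice, against -0.03 and -0.02 over all genes tested. Markers of other cells moved with RPM as well: 11 of 11 erythroid genes were higher in RPM than in Mono in each genotype, as were 6 of 7 B cell genes in TLR7.1 mice and 4 of 7 in WT mice, and 5 of 5 megakaryocyte and platelet genes in TLR7.1 mice and 1 of 5 in WT mice. The summed B cell level was 730 to 3062 CPM in TLR7.1 RPM, against 565 to 784 CPM in TLR7.1 Mono, and 246 to 1820 CPM in WT RPM, against 698 to 887 CPM in WT Mono. Their part in the differences between RPM and Mono was not tested.

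Ctsd showed the largest of these differences that both genotypes had. It ranged from 890 to 2229 CPM in TLR7.1 RPM, against 288 to 404 CPM in TLR7.1 Mono, and from 915 to 1638 CPM in WT RPM, against 205 to 328 CPM in WT Mono. No RPM library came near the Mono range of its genotype. The log2 fold changes were 1.99 ± 0.176 in TLR7.1 mice (adjusted p = 2.84e-11) and 2.09 ± 0.178 in WT mice (adjusted p = 1.04e-11). Ctsb ranged from 2007 to 4724 CPM in TLR7.1 RPM, against 1251 to 1624 CPM in TLR7.1 Mono (1.20 ± 0.164, adjusted p = 2.59e-07), and from 2143 to 4368 CPM in WT RPM, against 1205 to 1741 CPM in WT Mono (1.14 ± 0.164, adjusted p = 7.38e-07). Ctsl averaged 475 ± 111 CPM in TLR7.1 RPM, beside 223 ± 54.4 CPM in TLR7.1 Mono (1.09 ± 0.171, adjusted p = 3.06e-06), and 406 ± 85.5 CPM in WT RPM and 119 ± 22.7 CPM in WT Mono (1.79 ± 0.177, adjusted p = 3.59e-10). All 3 genes separated RPM from Mono without overlap in both genotypes, where 12.6% of all genes in TLR7.1 mice and 11.1% in WT mice had all RPM libraries above all Mono libraries.

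Ctsa and Ctsh ran the other way. Ctsa averaged 533 ± 138 CPM in TLR7.1 RPM, beside 1041 ± 78.3 CPM in TLR7.1 Mono (-0.97 ± 0.166, adjusted p = 1.11e-05), and 574 ± 135 CPM in WT RPM and 1073 ± 99.9 CPM in WT Mono (-0.90 ± 0.166, adjusted p = 3.82e-05). Ctsh averaged 505 ± 63.8 CPM in TLR7.1 RPM, beside 699 ± 23.4 CPM in TLR7.1 Mono (-0.47 ± 0.121, adjusted p = 0.00169), and 419 ± 88.8 CPM in WT RPM and 705 ± 69.9 CPM in WT Mono (-0.74 ± 0.123, adjusted p = 7.69e-06). Both were lower in RPM in 6 of 6 mice of each genotype. Counts thinned to 95002 per library left Ctsh in TLR7.1 mice at -0.29 ± 0.174 (adjusted p = 0.161). Ctsc and Ctsz were called in neither genotype over all counts: Ctsc differed by -0.19 ± 0.133 in TLR7.1 mice (adjusted p = 0.237) and 0.25 ± 0.133 in WT mice (adjusted p = 0.130), and Ctsz by 0.16 ± 0.139 (adjusted p = 0.347) and 0.08 ± 0.140 (adjusted p = 0.674). Thinned counts put Ctsc in WT mice past the threshold, at 0.38 ± 0.167 (adjusted p = 0.0496).

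Ctss was called higher in RPM in both genotypes, and these calls moved with depth. It had 1220, 1605 and 2508 CPM as lowest, median and highest value in TLR7.1 RPM, against 1140, 1176 and 1500 CPM in TLR7.1 Mono (0.48 ± 0.174, adjusted p = 0.0226), and 1193, 2184 and 3308 CPM in WT RPM, against 1018, 1245 and 1483 CPM in WT Mono (0.80 ± 0.175, adjusted p = 0.000298). Within WT RPM the highest value came from the library of 95002 counts and the lowest from that of 1511480 counts. With the log2 library total as a term the differences were -0.016 ± 0.0927 in TLR7.1 mice (adjusted p = 0.917) and 0.11 ± 0.102 in WT mice (adjusted p = 0.447). In libraries of 900000 to 1600000 counts they were -0.018 (adjusted p = 0.958) and -0.24 (adjusted p = 0.500), the second from 1 WT RPM library. Ctss is also the densest member per exonic base.

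Ctsb also moved with depth. With the library total as a term it stood at 0.79 ± 0.117 in TLR7.1 mice and 0.59 ± 0.125 in WT mice, and was called in both, while in libraries of 900000 to 1600000 counts it stood at 0.63 (adjusted p = 0.0207) and 0.41 (adjusted p = 0.250). Ctsd fell from 1.99 and 2.09 over all counts to 1.64 and 1.65 with the term, and to 1.67 and 1.62 in that range. Within RPM of each genotype Ctsd was also highest in the shallowest library, at 2229 CPM (TLR7.1, 268275 counts) and 1638 CPM (WT, 95002 counts). It was lowest in the deepest, at 890 CPM (TLR7.1, 1257240 counts) and 915 CPM (WT, 1511480 counts). Ctsl stood at 1.12 and 1.83 with the term, and at 1.23 and 1.89 in that range. The WT values in that range rest on 1 WT RPM library, with the spread taken from the other groups. At most Ctsl held 0.103 reads per exonic base and 0.340 per base of its principal transcript, against 1.46 and 1.47 for Ctss.

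**Figure D4:**
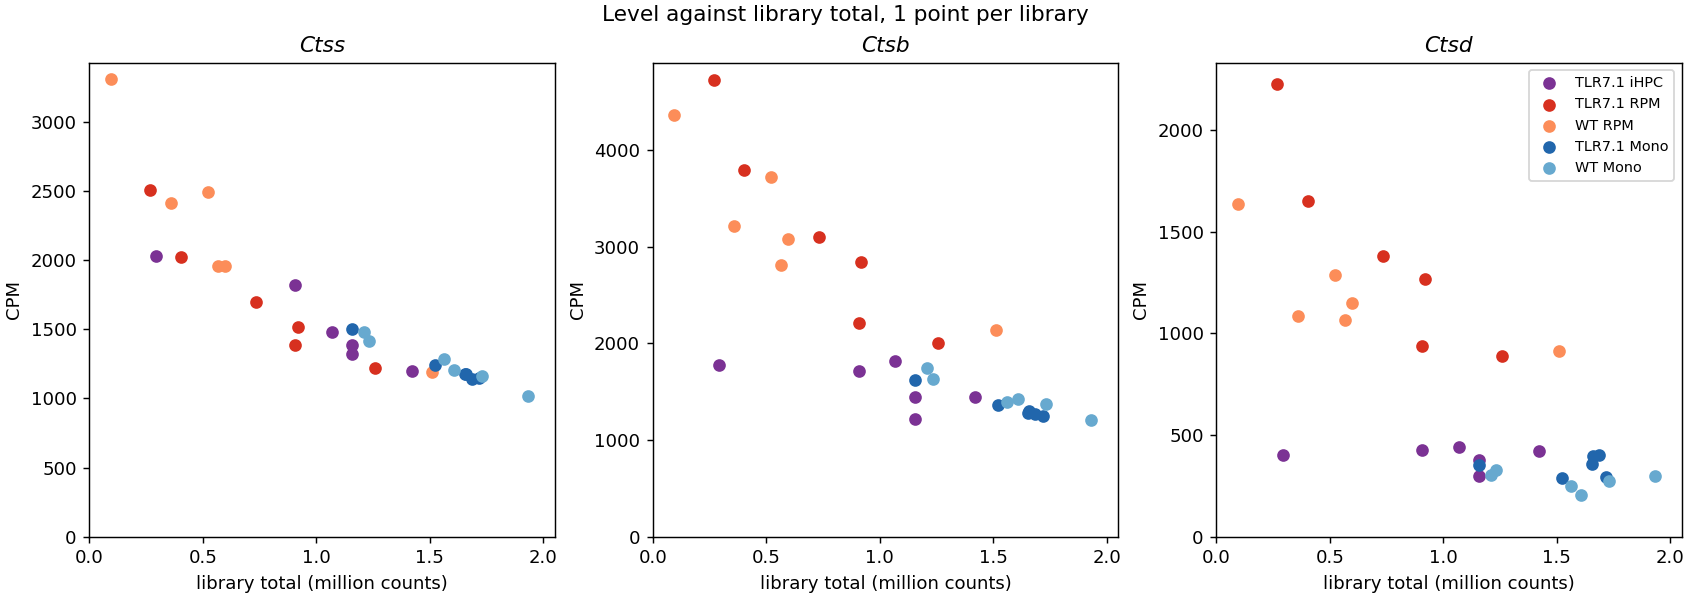
Level of Ctss, Ctsb and Ctsd in CPM (vertical axes, one panel per gene) against the library total (horizontal axes), 1 point per library, coloured by group. Ctss declines with the total along 1 band that all 5 groups share, from 3308 CPM (shallowest library) to 1018 CPM (deepest). Ctsd keeps RPM libraries above the others at all totals. Within RPM of each genotype Ctsd is also highest in the shallowest library and lowest in the deepest.

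Between genotypes, 1 cathepsin was called in RPM and another in Mono. In RPM, Ctse was called higher in TLR7.1 mice and 0 cathepsins were called lower, where 8.25% of all genes tested were called (4.48% higher, 3.77% lower). In Mono, Ctsl was called higher and 0 lower, where 2.10% were called (1.80% higher, 0.299% lower). By edgeR's unadjusted p under 0.05, which 22.8% of all genes passed in RPM and 7.46% in Mono, Ctss was also lower (-0.36 ± 0.175, adjusted p = 0.214) and Ctsh higher (0.26 ± 0.124, adjusted p = 0.205) in TLR7.1 RPM, and Ctsc higher in TLR7.1 Mono (0.32 ± 0.133, adjusted p = 0.434), while 0 were lower there. DESeq2, which called 11.5% of all genes in RPM and 2.95% in Mono, called 0 cathepsins lower in either cell type.

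The 6 TLR7.1 RPM libraries held 91.7, 93.7, 216, 263, 279 and 590 CPM of Ctse, against 0, 5.4, 17.2, 27.9, 31.5 and 32.1 CPM in WT RPM. The groups did not overlap, as for 1.72% of all genes tested, and the highest value, 590 CPM, came from mouse 24107. The values rest on 1467 counts in TLR7.1 RPM and 79 in WT RPM. The log2 fold change was 3.77 ± 0.514 (adjusted p = 2.41e-05), and between 3.34 and 4.20 when any 1 library was left out. By collection date, on log2(CPM + 1) of the means, the difference was 3.76 on 13 December (2 against 2 libraries), 2.86 on 21 December (2 against 1) and 3.94 on 26 December (2 against 3). TLR7.1 RPM also held more Ctse than TLR7.1 Mono (22.1 ± 7.61 CPM; 3.55 ± 0.469, adjusted p = 1.55e-07), while WT RPM, with 19.0 ± 13.8 CPM, were not called against WT Mono, with 29.6 ± 10.3 CPM (-0.64 ± 0.504, adjusted p = 0.310). In Mono the genotypes differed by -0.42 ± 0.450 (adjusted p = 1). The difference of differences, TLR7.1 against WT in RPM less the same in Mono, was 4.19 ± 0.678 (adjusted p = 0.000929). Ctse was the 1 cathepsin called in this test, where 0.689% of all genes tested were (0.399% higher, 0.290% lower). In libraries of 900000 to 1600000 counts, 3 against 1 in RPM, its genotype difference was 3.47 ± 0.810 (adjusted p = 0.0694).

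Erythroid markers also differed between TLR7.1 and WT RPM. Of 11 erythroid genes tested, 5 were higher in TLR7.1 than in WT RPM, among them Klf1, an erythroid transcription factor (144 ± 46.0 CPM in TLR7.1, 12.0 ± 10.3 CPM in WT), and Slc4a1, the anion exchanger of red cells (238 ± 90.8 CPM in TLR7.1, 32.6 ± 34.3 CPM in WT). The summed erythroid level was 2373 to 4932 CPM in TLR7.1 RPM, 1014 to 3339 CPM in TLR7.1 iHPC, 502 to 5695 CPM in WT RPM, 34.5 to 339 CPM in TLR7.1 Mono and 14.9 to 285 CPM in WT Mono. Klf1 was at 0 in 1 of 6 WT RPM libraries and in 2 of 6 iHPC libraries, and averaged 4.54 ± 5.96 CPM in iHPC. Within TLR7.1 RPM the library with the most Ctse had the lowest erythroid sum. The library with the least Ctse, from mouse 24380, had the highest, and it held 268275 counts, 23 of them of Ctse. Other lists moved too: 2 of 4 plasma cell genes, 1 of 7 B cell genes and 3 of 5 megakaryocyte and platelet genes were higher in TLR7.1 than in WT RPM. The library of mouse 24107 held 529 CPM of the lymphocyte gene Nkg7, against 0 to 132 CPM in the other TLR7.1 RPM libraries. The part of these cells in the Ctse difference was not tested.

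**Figure D5:**
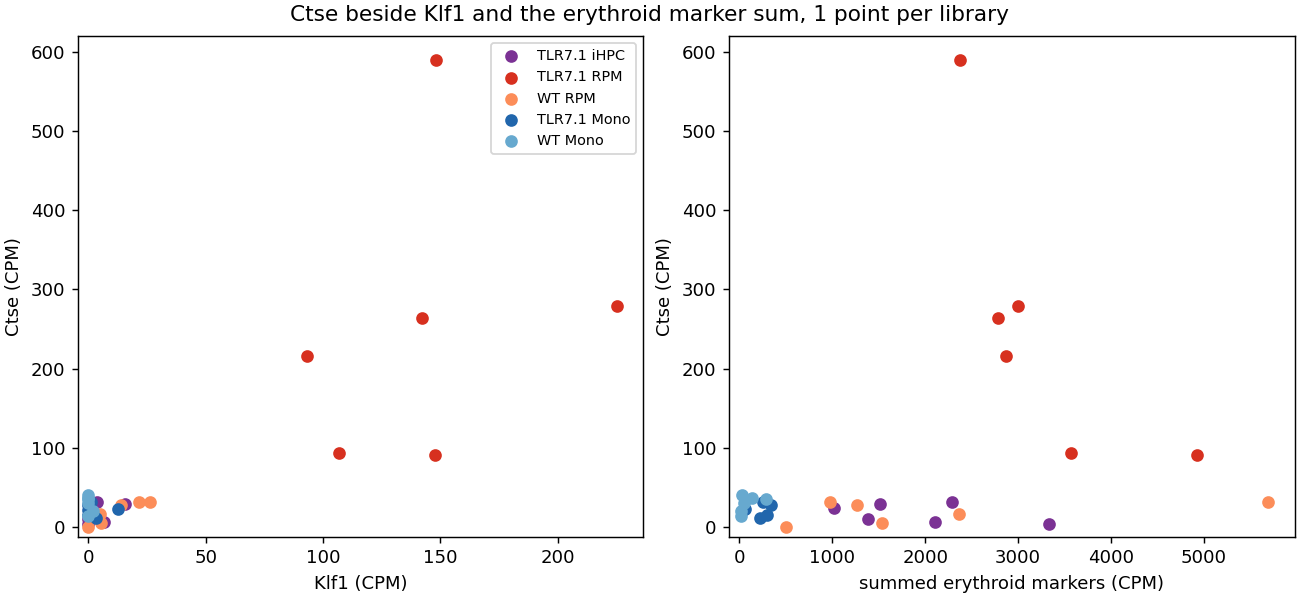
Ctse in CPM (vertical axes) against Klf1 and the summed erythroid markers in CPM (horizontal axes), 1 point per library, coloured by group. The 6 TLR7.1 RPM libraries lie apart on Ctse and Klf1. Among the erythroid sums the WT RPM library at 5695 CPM lies to the right of all 6, with 32.1 CPM of Ctse (3 counts). It is the shallowest library, of 95002 counts.

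Ctsl in Mono was the other genotype difference that was called. TLR7.1 Mono held 163, 211 and 304 CPM as lowest, median and highest value, against 90.2, 115 and 150 CPM in WT Mono, and the groups did not overlap, as for 4.17% of all genes tested. The log2 fold change was 0.91 ± 0.171 (adjusted p = 0.00108), with 0.82, 1.12 and 0.998 on the 3 collection dates on log2(CPM + 1). In RPM Ctsl differed by 0.21 ± 0.172 between the genotypes (adjusted p = 0.509), and the difference between both effects was not called (-0.70 ± 0.242, adjusted p = 0.205). In libraries of 900000 to 1600000 counts, 2 against 3 in Mono, it was 0.68 ± 0.239 (adjusted p = 0.609). Of 7 neutrophil and granulocyte progenitor genes tested 6 were also higher in TLR7.1 Mono, among them Elane (47.1 ± 24.0 CPM in TLR7.1, 1.11 ± 1.68 CPM in WT), and the sum over 10 such genes was 199 to 1761 CPM in TLR7.1 Mono, against 17.3 to 62.8 CPM in WT Mono. Ngp and Camp, of neutrophil granules, were at 0 in all 6 WT Mono libraries and in 2 TLR7.1 Mono libraries. Their part in the Ctsl difference was not tested.

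Ctsk, the collagen-degrading cathepsin of osteoclasts, was hardly detected: 17 counts over all libraries, in 5 of 30. The counts were 1 in iHPC, 7 in TLR7.1 Mono and 9 in WT Mono, while RPM of both genotypes had 0. Over the 6 libraries of a group, 3 counts, the limit that a count of 0 allows, would be 0.665 CPM (TLR7.1) and 0.825 CPM (WT) (counting error only). Its neighbour on chromosome 3 is Ctss, the member with the highest level per length.

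Ordered by mean level, neighbouring groups often did not differ beyond their spread. For Ctsb, WT RPM and TLR7.1 RPM stood first and second without a call between them (3224 ± 763 CPM in WT, 3113 ± 1018 CPM in TLR7.1), then TLR7.1 iHPC, WT Mono and TLR7.1 Mono, of which no neighbours were called, so that the 1 step was that from TLR7.1 RPM to iHPC. For Ctsd the order was TLR7.1 RPM, WT RPM, TLR7.1 iHPC, TLR7.1 Mono and WT Mono, and the step from WT RPM (1190 ± 251 CPM) to iHPC was the one that was called. For Ctsl 2 steps were called, that from WT RPM to iHPC (adjusted p = 0.00149) and that from TLR7.1 Mono to WT Mono. For Ctse the step below TLR7.1 RPM was called (adjusted p = 8.86e-07 against WT Mono), for Ctsc that from WT Mono to iHPC (adjusted p = 6.44e-08), for Ctsa that from iHPC to WT RPM (adjusted p = 0.0318) and for Ctsh that from iHPC to TLR7.1 RPM. For Ctss and for Ctsz, whose group means ran from 811 to 981 CPM, no step was called. Against the groups of the other genotype, iHPC had 2 cathepsins higher and 5 lower than WT RPM (all genes: 23.4% called, 11.5% higher and 11.9% lower) and 2 higher and 2 lower than WT Mono (39.1% called, 20.3% higher and 18.9% lower). TLR7.1 RPM had 5 higher and 2 lower than WT Mono (48.5% called, 25.1% higher and 23.4% lower), and TLR7.1 Mono 2 higher and 4 lower than WT RPM (48.8% called, 24.0% higher and 24.8% lower). Ctsl and Ctsd were the 2 that iHPC had more of than WT Mono (1.05 ± 0.173 and 0.51 ± 0.172).

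By Pearson's r of log2(CPM + 1) over the 30 libraries, and among 7610 genes of at least 20 CPM on average, each member had its own nearest genes. These libraries share depth and cell type, so r is a description. Ctse had Urod, an enzyme of heme synthesis, among its nearest genes (r = 0.849). Ctss was nearest to Tyrobp (r = 0.982), an adaptor of myeloid receptors, and Cyba (r = 0.976), a subunit of the phagocyte oxidase. Ctsc was nearest to Fcgr3 (r = 0.900, Spearman's rho 0.535), a low-affinity receptor for IgG, which averaged 216 ± 94.2 CPM in TLR7.1 iHPC, 799 ± 172 CPM in TLR7.1 RPM, beside 646 ± 28.3 CPM in TLR7.1 Mono. Ctsb was nearest to Cyb5a (r = 0.965), Ctsd to Etfb (r = 0.966), Ctsl to Cd38 (r = 0.912), Ctsh to Nupr1 (r = 0.916), Ctsa to Sirt7 (r = 0.911) and Ctsz to H2-D1 (r = 0.857).

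Of 13 further cathepsin genes looked up, 3 could be tested. Ctsg, a serine protease of primary granules, had 0, 88, 130, 177, 276 and 373 CPM in the TLR7.1 iHPC libraries and 0 counts in TLR7.1 RPM, at least 271-fold higher in iHPC against 3 counts over the 6 RPM libraries. TLR7.1 Mono held 11.7 ± 12.0 CPM (3.88 ± 0.760, adjusted p = 0.000162 for iHPC against Mono). The iHPC library without Ctsg, from mouse 24261, was also the one with 2.78 CPM of basophil and mast cell genes. Ctsf, a lysosomal cysteine protease, was lower in iHPC than in RPM of TLR7.1 mice (4.43 ± 3.73 CPM in iHPC, 42.3 ± 25.7 CPM in RPM, log2 fold change -3.10 ± 0.738, adjusted p = 0.00159).

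Several natural inhibitors of cathepsins were higher in RPM than in Mono. Of 20 cystatins, serpins and the invariant chain gene Cd74, 8 could be tested. Between WT RPM and WT Mono 6 were higher in RPM and 0 lower, where 23.7% of all genes were higher and 22.5% lower, with a median log2 fold change of 0.97 against -0.02 over all genes. In TLR7.1 mice 5 were higher and 1 lower, where 23.9% of all genes were higher and 22.6% lower. Serpinb6a, whose counterpart in man inhibits cathepsin G, averaged 379 ± 50.5 CPM in TLR7.1 iHPC, 678 ± 86.9 CPM in TLR7.1 RPM, beside 28.5 ± 6.64 CPM in TLR7.1 Mono, and iHPC differed from both (-0.83 ± 0.157 against RPM, adjusted p = 0.000106; 3.73 ± 0.179 against Mono, adjusted p = 9.04e-18). Of the inhibitors, iHPC also had more Serpinb1a (216 ± 48.4 CPM in iHPC, 58.5 ± 35.8 CPM in RPM) and less Cstb, the cytosolic cystatin (287 ± 55.0 CPM in iHPC, 407 ± 80.8 CPM in RPM), than RPM. Between the genotypes in RPM, Cd74 was lower in TLR7.1 mice (1332 ± 412 CPM in TLR7.1, 2113 ± 547 CPM in WT, log2 fold change -0.65 ± 0.209, adjusted p = 0.0472).

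Genes that sort, activate or accompany cathepsins were more often lower than higher in iHPC. Of 18 such genes, all tested, 2 were higher and 9 lower in TLR7.1 iHPC than in TLR7.1 RPM (median -0.53, against -0.00 over all genes, of which 13.6% were higher and 13.5% lower), and 1 was higher and 7 lower than in TLR7.1 Mono (median -0.34, against 0.00 over all genes, of which 19.3% were higher and 19.4% lower). Scarb2, the mannose 6-phosphate-independent carrier of glucocerebrosidase, had 55.6 ± 21.7 CPM in iHPC, 134 ± 75.1 CPM in RPM and 188 ± 27.1 CPM in Mono. Glb1, a partner of the Ctsa protein, had 34.9 ± 5.71 CPM in iHPC, 71.9 ± 39.2 CPM in RPM and 78.5 ± 19.0 CPM in Mono, while Ctsa itself was higher in iHPC than in RPM. Igf2r, the large mannose 6-phosphate receptor, had 7.55 ± 8.48 CPM in iHPC and 36.6 ± 18.6 CPM in RPM (-2.45 ± 0.767, adjusted p = 0.0151). Neu1, the second partner of Ctsa, was lower in TLR7.1 than in WT RPM (160 ± 33.6 CPM in TLR7.1, 250 ± 49.4 CPM in WT, log2 fold change -0.65 ± 0.194, adjusted p = 0.0342).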

How the data were processed

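RNA of 500 sorted cells per library was made into full-length cDNA with the SMART-Seq v4 kit and into libraries with Nextera XT, per the labels' protocols. The authors deposited whole-number read counts per Ensembl gene, not normalized. Build NCBIM37 and, in no stated order or role, HTSeq 0.4.1, TopHat, Bowtie, SAMtools, Picard, FastQC and CASAVA 1.8.2 are listed in the submitters' processing notes. The strand setting of the counting is not given in the sources used here. Exons of Ctsa overlap Neurl2 and Pltp, of Ctsb Fdft1 and of Ctsz Nelfcd, all on the opposite strand, so these values carry that uncertainty. Exons of Ctsl also overlap Gm47123 on the opposite strand and Gm49230 on the same strand, and those of Ctsd overlap Gm49369 on the same strand. These overlapping genes have no counts of their own among the identifiers of the authors. Symbols and exon lengths came from GENCODE M21 (GRCm38).

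The 10 members, the gene lists and the tests were chosen with earlier results of these data known. Genes kept by filterByExpr (11030) were scaled by TMM and fitted with edgeR's robust quasi-likelihood model, 1 mean per group, with tests two-sided, on 30 libraries in R 4.3.3 with edgeR 4.0.16 and limma 3.58.1. The fit was tested on simulated data with 200 genes changed. Of the lists, at most 4 genes called at 20 CPM or more are named per comparison, by size of change. One gene of the likeness rule is not reported here. Samples with the same mouse number come from the same animal. Residuals of such pairs correlated at -0.077 to 0.209 over 24 pairs, with 3 over 0.1. Alternatives used RLE scaling, DESeq2 1.42.0, no filter, thinned counts, date or mouse as a term, other sets of libraries and, added after the data were seen, depth. The p-values rest on the spread between libraries of a group, each from a different mouse, as estimated over all 5 groups. The main fit did not use the pairing of libraries from the same mouse.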

Additional observations from a re-analysis of the deposited data

Results flagged for a closer look

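In TLR7.1 Mono, the library of mouse 24380 stood far from the other 5 for 3 cathepsins: Ctsb at 1624 CPM, Ctss at 1500 CPM and Ctsz at 1084 CPM were each the highest value of the group, with a gap to the next library that passes Dixon's critical value. At 1157446 counts this is the shallowest library of its group. Of 45 pairs of a member and a group 3 stood apart in this way, and chance flags about 1 in 20 groups.

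The TLR7.1 effect on Ctse differed between RPM and Mono by 4.19 on the log2 scale, by the interaction term of the fit (SE 0.678, adjusted p = 0.000929 in edgeR's quasi-likelihood test), with higher values in 6 of 6 TLR7.1 RPM libraries than in any WT RPM library. Erythroid genes differed between the same RPM groups, and their part was not tested.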

How the results depend on the processing

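Of the values recomputed, those with collection date as a term all kept their direction and call. With a replicate block the numbers called stayed the same, though Ctsh in TLR7.1 against WT Mono, not called, turned its sign. With mouse as a term 2 cathepsins were higher and 5 lower in iHPC against RPM, and 0 and 1 in iHPC against Mono. The numbers were 5 and 2 in TLR7.1 RPM against Mono, 4 and 2 in WT RPM against Mono, and 1 and 0 in the difference of differences. With a within-mouse correlation in limma voom they were 1 and 0 in TLR7.1 against WT RPM and in TLR7.1 against WT Mono. Some settings ended calls, and the cause was not tested. The share of all genes called under each setting is not set beside these counts, so they do not tell cathepsins from other genes. With counts thinned to 95002 per library, where Ctse could not be tested, 0 were higher in iHPC against RPM, 1 was lower in TLR7.1 RPM against Mono, and 0 were higher in TLR7.1 against WT RPM and in the difference of differences. With the compared groups alone fitted, 0 were higher in iHPC against RPM and 2 in iHPC against Mono. RLE size factors and DESeq2 each gave 2 lower in iHPC against Mono, and Ctss in TLR7.1 RPM against Mono then missed the threshold (0.43, adjusted p = 0.0523 and 0.0526), as it did with no filter (0.41) and without RPM mouse 24380 (0.37). Depth alternatives were added after the data were seen. In libraries of 900000 to 1600000 counts, 1 of them WT RPM, 2 were higher and 0 lower in WT RPM against Mono, and 0 were higher in TLR7.1 against WT RPM, in TLR7.1 against WT Mono and in the difference of differences.

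Some signs turned, among them those of 2 called differences, Ctss in TLR7.1 RPM against Mono (0.48) and in WT RPM against Mono (0.80), while the other values whose sign turned were not called. In that depth range Ctss was 0.11 and Ctsz 0.15 in iHPC against RPM, Ctse 0.12 in iHPC against Mono, Ctss -0.018 and Ctsz -0.30 in TLR7.1 RPM against Mono, and Ctsc -0.063, Ctss -0.24 and Ctsz -0.20 in WT RPM against Mono. There too Ctsb was 0.11, Ctsh -0.17, Ctss 0.18 and Ctsz -0.028 in TLR7.1 against WT RPM, and Ctsd 0.052, Ctsh -0.080, Ctss 0.23 and Ctsz -0.11 in the difference of differences. With log2 library total as a term, Ctss was 0.032 in iHPC against RPM and -0.016 in TLR7.1 RPM against Mono, Ctsb -0.013, Ctsd -0.0035 and Ctse 0.20 in iHPC against Mono, Ctse 0.18 and Ctsz -0.0845 in WT RPM against Mono, and Ctsb 0.087 in TLR7.1 against WT RPM. Thinned counts gave Ctsh 0.080 and Ctsz 0.13 in iHPC against Mono and Ctsz -0.070 in TLR7.1 against WT Mono. In the last comparison Ctsh was 0.0013 with RLE, 0.0019 with DESeq2 and 0.0058 with the voom replicate block, and Ctsz was 0.0195 in iHPC against Mono without libraries under 300000 counts.

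Leaving out each library in turn kept 1 to 2 higher in iHPC against RPM and 1 to 2 higher in TLR7.1 against WT RPM. Over these fits Ctsz ran from -0.13 to 0.019 in iHPC against Mono and from -0.013 to 0.13 in WT RPM against Mono. In TLR7.1 against WT RPM, Ctsa ran from -0.19 to 0.0034 and Ctsb from -0.17 to 0.090. In TLR7.1 against WT Mono, Ctsa ran from -0.098 to 0.0018, Ctsh from -0.043 to 0.020, Ctss from -0.12 to 0.015 and Ctsz from -0.0195 to 0.12. In the difference of differences Ctsa ran from -0.14 to 0.058, Ctsb from -0.0415 to 0.22 and Ctsd from -0.23 to 0.0495. Ctsc in WT RPM against Mono was called with thinned counts (0.38) and without WT Mono mouse 24117 (0.34), and Ctsh in TLR7.1 against WT RPM without WT RPM mouse 24117 (0.38). Shallow RPM libraries limit the precision of RPM values, and the level of Ctss declined with depth.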
